A study of Mus musculus with 6 samples.

Results

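The 51 genes described here form the TGF-beta and BMP pathway: ligands, receptors, secreted antagonists, SMAD transducers with their regulators, and the ID target genes. They were chosen by gene symbol from 32028 genes quantified in 6 poly(A) RNA libraries. Of the 51 members, 42 had enough counts to be tested between genotypes and 9 had not. The series compared 3 knockout clones, made from Macf1flox/flox mouse embryonic fibroblasts (MEFs), with 3 het clones, made from Macf1flox/+ MEFs. Macf1 encodes a large spectraplakin that links actin filaments to microtubules. All 6 lines carry SV40 large T antigen, which immortalized them, and received AAV8-CMV-Cre, a virus that drives Cre from a general promoter. Each line grew from a single cell, and RNA was taken from confluent cultures.

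Because the genotypes came from different mice, genotype and mouse of origin cannot be told apart. The sources do not say whether clones of 1 genotype came from separate embryos. All p-values here rest on the spread among these clones, which may be smaller than that between animals. Cultures were sequenced in bulk, so fewer cells with a transcript and less of it per cell cannot be told apart.

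TGF-beta, activin and BMP ligands are secreted dimers that bind pairs of type I and type II serine/threonine kinase receptors. TGF-betas and activins act mainly through SMAD2 and SMAD3, and BMPs and several GDFs through SMAD1, SMAD5 and SMAD9. All of these partner with SMAD4 to regulate transcription. Secreted antagonists such as noggin, gremlin and follistatin trap ligands outside the cell, while SMAD6, SMAD7, SKI, SKIL and the SMURF ligases restrain the signal inside it. In fibroblasts the pathway is known for driving matrix production and contractile gene expression.

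Library totals ran from 16581833 to 18209673 estimated counts in the knockout clones and from 15661342 to 17614982 in the het clones. Levels are CPM, that is, counts divided by library sizes after scaling by the trimmed mean of M values (TMM). Macf1 itself averaged 331 ± 27.9 CPM in knockout clones and 656 ± 66.6 CPM in het clones (SD, n = 3 each), a log2 fold change of -0.99 (edgeR quasi-likelihood test, adjusted p = 0.00307). By its most abundant transcript the Macf1 change was -1.88, and by the log2 of the authors' FPKM -0.54 or -0.55 (pseudocounts 1 and 0.1). Across genes, het clone 1 stood apart within its genotype, with correlations of log2 CPM of 0.955 and 0.948 to the other het clones, against 0.984 between those. The fibroblast label was checked on 10 markers. Vim and Fn1 were abundant in all 6 clones, but Lum was at 0 in every clone, Thy1 had 0 counts in knockout clones and 1 in het clones, and Dcn had 0 in knockout clones and 32 in het clones. Of the 7 fibroblast markers tested, 5 were lower in knockout clones, namely Col1a1, Col1a2, Col3a1, Pdgfra and Pdgfrb. The summed fibroblast markers were 5606 to 8130 CPM in knockout clones and 9013 to 12515 CPM in het clones. Markers of other lineages also differed, each lineage through 1 or 2 genes. Of the neural and glial markers, Sox2 was lower, at 0.207 to 0.855 CPM in knockout clones and 5.77 to 10.6 CPM in het clones, and so was Tubb3, at 0.827 CPM or less in knockout clones and 4.835 to 13.3 CPM in het clones. The epithelial sum was 0.492 to 0.982 CPM in knockout clones and 16 to 56.6 CPM in het clones. In het clones it was nearly all Krt19, which was at 0.620 CPM or less in knockout clones. Epcam, Cdh1, Krt5, Krt8, Krt14 and Krt18 were under 1 CPM in every clone. Muscle markers, at 2.08 to 4.18 CPM in knockout clones and 0.658 to 1.46 CPM in het clones, were Des alone, with Myod1, Myog, Myf5 and Pax7 at 0 throughout. The bone and cartilage sum, 46.0 to 49.3 CPM in knockout clones and 64.9 to 73.4 CPM in het clones, was mostly Runx2. Sox9 was at 10.8 to 13.2 CPM in knockout clones and 8.32 to 10.7 CPM in het clones and did not pass (edgeR adjusted p = 0.158). Endothelial sums (2.63 to 3.21 against 1.56 to 3.26 CPM) and immune sums (5.01 to 6.03 against 4.73 to 6.40 CPM) overlapped between the genotypes. The part of these markers in the results below was not tested.

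Of the 42 tested members, 15, or 35.7%, differed between genotypes at an edgeR adjusted p below 0.05, where 28.1% of all 12745 tested genes did. The members were chosen with earlier results of these data known, so this is not a neutral comparison. The direction was lower in 12 members (14.2% of all genes) and higher in 3 (13.9% of all genes). The 12 lower members were the ligands Tgfb3, Bmp4 and Gdf5, the receptors Tgfbr2 and Tgfbr3, the antagonists Fst, Fstl3 and Grem1, Smad3, Ski, Smurf2 and Id1. Higher in knockout clones were the BMP antagonist Nog, the protease gene Bmp1 and the corepressor gene Skil. Knockout and het clones did not overlap for 24 of the 42 members, and for 47.5% of all tested genes. The median log2 fold change was -0.32 over the 42 members and 0.00 over all tested genes. A member low in 1 genotype could reach the test through the other alone, since the count filter asked for 3 clones at 0.582 CPM or more. Gdf5, Fst, Fstl3, Grem1 and Chrdl1 met it through the het clones alone, which favours a lower value, and Nog and Bambi through the knockout clones alone, which favours a higher one.

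**Figure D1:**
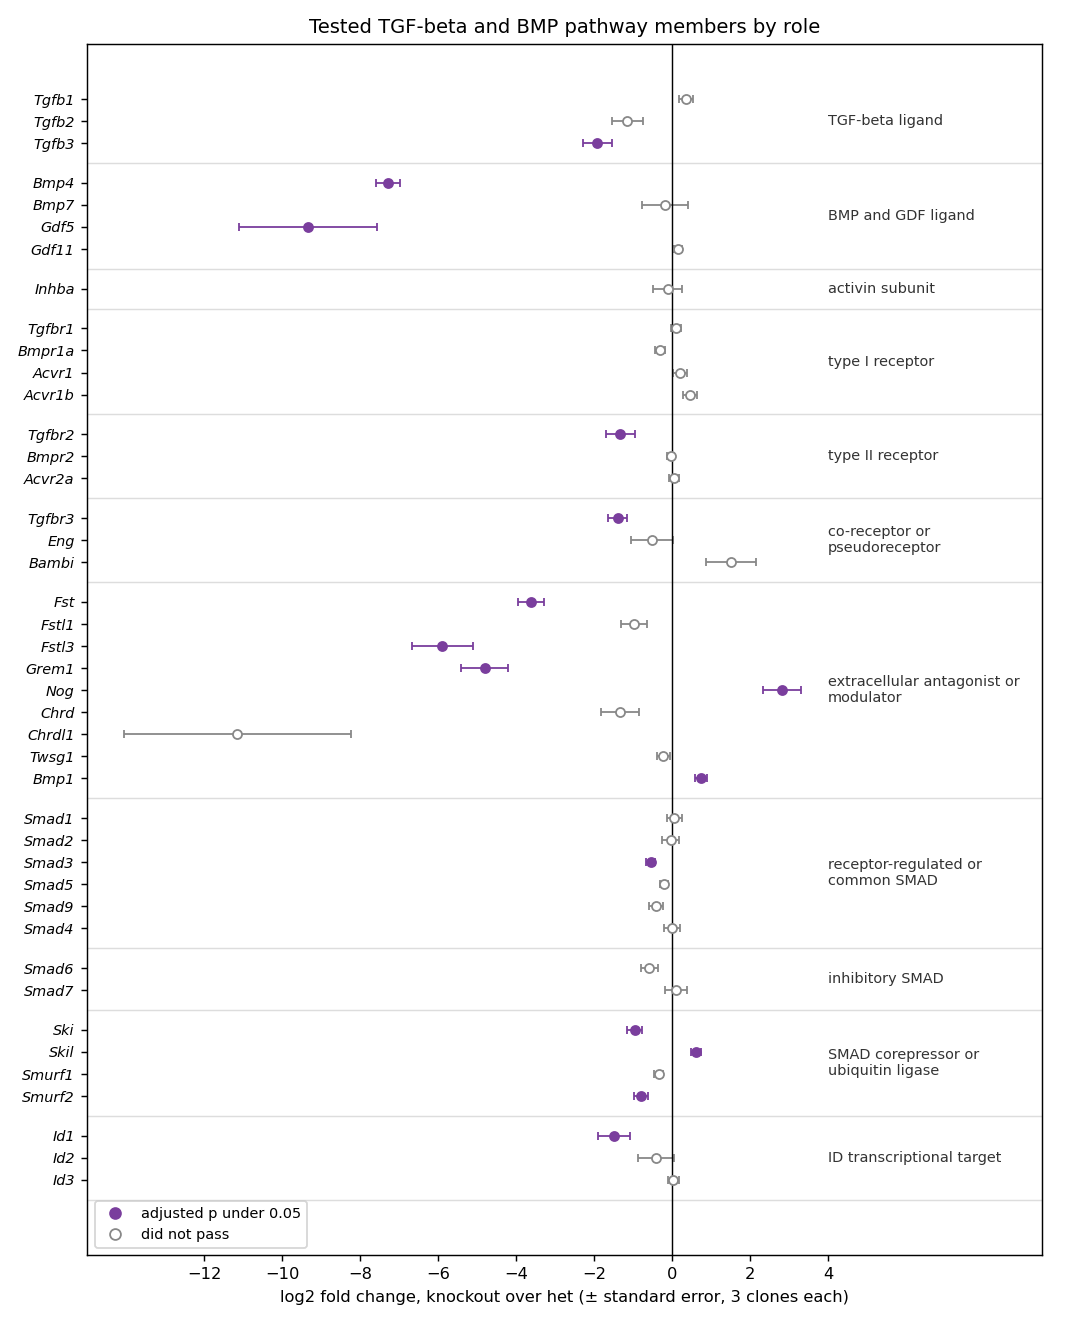
Log2 fold change of each of the 42 tested members, knockout over het, with its standard error (3 clones each), grouped by role; filled points passed at an adjusted p below 0.05. Bmp4 (-7.28), Fstl3 (-5.90) and Grem1 (-4.81) lie far left with small errors, Gdf5 and Chrdl1 lie further left with wide errors, and the type I receptors and most SMADs lie near 0.

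**Figure D2:**
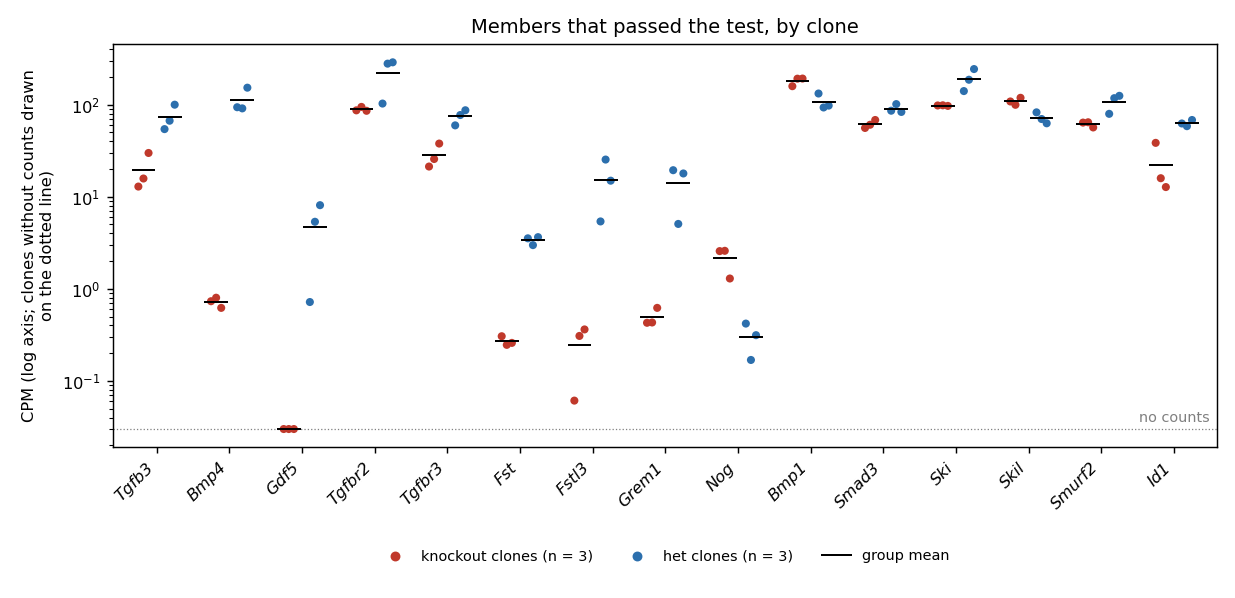
CPM of the 15 members that passed, in each knockout clone (left of each pair) and each het clone, on a log axis, with group means as lines; clones without counts are drawn on the dotted line. The genotypes do not overlap in any of the 15, which were picked by the test itself, nor in 47.5% of all tested genes. The gap is wide for Bmp4 (0.718 against 112 CPM on average) and narrow for Tgfbr2 (94.4 against 102.6 CPM at the nearest clones).

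The sequence before the start sites of Bmp4, Fstl3 and Grem1 is shown because these members had the largest fold changes among those that passed with 5 CPM or more in het clones. Each window is the 250 bases upstream of the RefSeq start on GRCm38.p6, written 5′ to 3′ on the gene's strand: Bmp4 at chr14:46390670-46390919 (minus strand), Fstl3 at chr10:79777024-79777273 (plus strand) and Grem1 at chr2:113758649-113758898 (minus strand). Capitals mark matches, on either strand, to letters known from SMAD binding. One is the palindrome GTCTAGAC. Another is CAGAC, here called the SMAD box and read as its reverse complement on the opposite strand. The last is the GC-rich element GGCGCC. None of these letter strings contains another.
Bmp4: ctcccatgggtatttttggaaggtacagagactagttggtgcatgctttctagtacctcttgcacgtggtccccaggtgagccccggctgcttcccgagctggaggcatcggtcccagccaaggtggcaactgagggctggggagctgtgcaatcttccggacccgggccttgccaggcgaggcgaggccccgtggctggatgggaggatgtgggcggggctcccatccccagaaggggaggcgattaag
Fstl3: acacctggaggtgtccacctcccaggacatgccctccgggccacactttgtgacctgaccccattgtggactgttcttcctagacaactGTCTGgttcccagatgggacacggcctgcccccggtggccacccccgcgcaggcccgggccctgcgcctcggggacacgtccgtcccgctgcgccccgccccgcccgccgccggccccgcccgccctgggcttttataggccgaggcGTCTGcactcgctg
Grem1: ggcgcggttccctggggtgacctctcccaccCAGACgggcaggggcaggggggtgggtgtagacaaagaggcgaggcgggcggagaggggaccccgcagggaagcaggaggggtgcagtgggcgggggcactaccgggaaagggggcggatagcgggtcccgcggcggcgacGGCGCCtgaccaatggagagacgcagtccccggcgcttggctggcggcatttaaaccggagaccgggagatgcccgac

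The Bmp4 window held none of the 3 motifs. The Fstl3 window held the SMAD box on its reverse strand 161 and 14 bases before the start. The only Fstl3 transcript in the authors' deposited table of transcripts starts further downstream, at position 79780581. Which start these clones used was not tested. The Grem1 window held a SMAD box 219 bases and the GC-rich element 78 bases before the start. Among 32851 promoters of this length, 42.2% held the SMAD box, 9.59% the GC-rich element and 0.167% the palindrome. Of 39 RefSeq promoters matched to 34 members, 17 held the SMAD box, 11 the GC-rich element and 0 the palindrome. The member promoters were richer in G and C (median 68.4%) than all promoters (52.4%), and the GC-rich element is made only of those bases. GC content was 63.2% for Bmp4, 71.2% for Fstl3 and 72.0% for Grem1.

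Of the 3 TGF-beta isoform genes, which encode ligands stored in latent form in the matrix, only Tgfb3 passed. Tgfb3 was at 12.9, 15.7 and 29.8 CPM in knockout clones 1 to 3, against 54.2, 66.8 and 99.8 CPM in the het clones 1 to 3. The highest knockout clone, clone 3, stayed below the lowest het clone. This is a log2 fold change of -1.91 ± 0.38 (SE; edgeR adjusted p = 0.0133). The call was lost without knockout clone 2 (adjusted p = 0.0600; edgeR, DESeq2 and limma alternatives gave 7.5e-07 to 0.0600).

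Tgfb2 was at 26.3, 33.5 and 31.6 CPM in knockout clones against 30.0, 78.6 and 94.2 CPM in the het clones. Het clone 1 lay among the knockout clones, while the other het clones were higher than all of them. The difference of -1.15 ± 0.40 (log2, SE) did not pass (edgeR adjusted p = 0.0759). Without het clone 1 it was -1.51 and passed (edgeR adjusted p = 0.000996; range over the alternatives 0.000996 to 0.332). Tgfb1, the isoform most studied in fibrosis, was at 30.2, 29.1 and 37.7 CPM in knockout clones against 20.6, 24.7 and 30.7 CPM in the het clones, and the clones overlapped (log2 fold change 0.35, edgeR adjusted p = 0.185).

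Among the 8 BMP and GDF ligand genes, Bmp4 had the smallest adjusted p of all tested members. BMP4 patterns mesoderm and limb mesenchyme and drives bone formation. Its transcript was at 0.733, 0.800 and 0.620 CPM in knockout clones and at 93.6, 91.0 and 152.6 CPM in het clones. The transcript was thus uniformly low but detected in the knockout clones, with 37 counts in all, against 5616 in het clones. Pooled counts were 156-fold lower in knockout clones (exact 95% interval 113 to 222, counting error only). The fitted log2 fold change was -7.28 ± 0.30 (SE; edgeR adjusted p = 3.71e-05), and the call held in all 17 alternatives. On either side of Bmp4 on chromosome 14, the median log2 fold change of the 40 nearest tested genes was -0.18.

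Gdf5, a ligand of joint and cartilage formation, had 0 counts in all 3 knockout clones and was at 0.718, 5.34 and 8.09 CPM in the het clones. Set against a floor of 3 counts over the knockout group, 0.0577 CPM, this is a drop of at least 81.0-fold, with bounds of 50.9-fold without knockout clone 3 and 115-fold without het clone 1. It passed (edgeR adjusted p = 0.0224). The call was lost without knockout clone 1 (0.0551), knockout clone 2 (0.0567) or het clone 2 (0.0644), in a range of 1.05e-07 to 0.0644 over its 14 alternatives. Its close relative Gdf6 was untested, with 0 counts in knockout clones and 0, 2.81 and 2.32 CPM in het clones, which makes it at least 29.9-fold lower over the group. That bound ran from 18.8-fold without knockout clone 3 to 44.7-fold without het clone 1. Het clone 1 was the lowest het clone for both genes.

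The remaining BMP and GDF ligand genes were low or did not pass. Bmp6 had 2 counts in knockout clones and 34 in het clones, a pooled fold of 17.5 lower (exact 95% interval 4.49 to 150.5), and was untested. Bmp7 was under 1 CPM in every clone (log2 fold change -0.18, edgeR adjusted p = 0.842). Bmp2 and Gdf10 had no counts in any clone. Gdf11, which patterns the body axis, was at 28.6, 30.1 and 31.8 CPM in knockout clones against 27.9, 26.8 and 26.5 CPM in the het clones. Those clones did not overlap, yet the difference was small (log2 fold change 0.16, edgeR adjusted p = 0.278).

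Activin subunit genes gave no call. Inhba, which encodes the subunit of activin A, was at 37.7, 40.6 and 14.1 CPM in knockout clones against 35.4, 27.8 and 36.8 CPM in the het clones. Knockout clone 3 was the lowest of the 6, and the other knockout clones were the highest (log2 fold change -0.11, edgeR adjusted p = 0.844). Inhbb had 0 counts in knockout clones and 29 in het clones, at least 9.96-fold lower, and was untested. Its bound was 6.25-fold without knockout clone 3.

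None of the 4 tested type I receptor genes passed. Bmpr1a, the BMP type I receptor with the most RNA per length, was at 108, 114 and 129 CPM in knockout clones against 127, 158 and 150.0 CPM in the het clones. Knockout clone 3 and het clone 1 met in the middle (log2 fold change -0.31, edgeR adjusted p = 0.0963). Without het clone 1 the difference was -0.40 and passed (edgeR adjusted p = 0.0392; range 0.0392 to 1). Tgfbr1, the TGF-beta type I receptor, averaged 30.0 ± 1.55 CPM in knockout clones and 28.1 ± 3.41 CPM in het clones (SD, n = 3 each; log2 fold change 0.10, edgeR adjusted p = 0.594).

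For the activin receptor genes, Acvr1b was at 22.2 to 29.0 CPM in knockout clones and 14.6 to 21.8 CPM in het clones, without overlap (log2 fold change 0.47, edgeR adjusted p = 0.0996). Acvr1, also a BMP receptor, was at 43.2, 39.0 and 41.7 CPM in knockout clones against 46.6, 29.9 and 31.0 CPM in the het clones. Here too het clone 1 departed from the other het clones: without it the log2 fold change was 0.44 in place of 0.21, and the edgeR adjusted p 0.0287 in place of 0.438 (range 0.0287 to 1). Bmpr1b had 5 and 10 counts and Acvrl1, an endothelial receptor gene, 9 and 15 counts in knockout and het clones, and neither was tested.

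The type II receptor gene of TGF-beta itself, Tgfbr2, was the receptor kinase gene that passed. It was at 86.6, 94.4 and 85.6 CPM in knockout clones against 102.6, 278 and 288 CPM in the het clones. As for Tgfb2, het clone 1 lay near the knockout clones, although above them all. The log2 fold change was -1.33 ± 0.37 (SE; edgeR adjusted p = 0.0419). The call held in 6 of 17 alternatives. It was lost on leaving out knockout clone 1 (0.129), knockout clone 2 (0.115), knockout clone 3 (0.115), het clone 2 (0.111) or het clone 3 (0.106), and held without het clone 1 (-1.68, edgeR adjusted p = 0.000149; range 0.000149 to 0.184). The BMP type II receptor gene Bmpr2 had close values, at 124.9, 122.8 and 123 CPM in knockout clones and 115.4, 132.7 and 132.6 CPM in het clones (log2 fold change -0.04, edgeR adjusted p = 0.783). Acvr2a gave 0.06 (edgeR adjusted p = 0.762), and Acvr2b had 18 and 11 counts in knockout and het clones and was untested.

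Tgfbr3, or betaglycan, presents TGF-beta2 to the signalling receptors and also binds inhibin. It was at 21.2, 25.7 and 37.7 CPM in knockout clones against 59.5, 77.0 and 86.8 CPM in the het clones, with no overlap. The log2 fold change of -1.40 ± 0.24 (SE; edgeR adjusted p = 0.00784) held in all 17 alternatives. Bambi, a pseudoreceptor without a kinase domain that blocks signalling, was at 3.85, 3.94 and 4.45 CPM in knockout clones against 1.56, 0.281 and 2.44 CPM in the het clones. All knockout clones were above all het clones, but het clone 2 was far below the other het clones and the difference did not pass (1.52 ± 0.64 on the log2 scale, SE; edgeR adjusted p = 0.121). Eng, or endoglin, a co-receptor of endothelial cells, was at 2.69 to 3.57 CPM in knockout clones and 2.10 to 8.47 CPM in het clones (log2 fold change -0.51, edgeR adjusted p = 0.512).

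Secreted antagonists and modulators held 5 of the 15 calls, from 9 genes, all tested. That is 55.6%, where 28.1% of all tested genes were called. Of the called genes, Fst, Fstl3, Grem1 and Nog met the count filter through 1 genotype alone, which favours a difference. The genes of 3 ligand traps were lower in knockout clones. Fstl3, which binds activins and related ligands, was at 0.0611, 0.308 and 0.362 CPM in knockout clones against 5.39, 25.3 and 14.9 CPM in the het clones. Even the lowest het clone, clone 1, was well above every knockout clone, and pooled counts were 61.7-fold lower in knockout clones (exact 95% interval 35.8 to 116; log2 fold change -5.90 ± 0.78 SE, edgeR adjusted p = 0.00349). Grem1, or gremlin, which traps BMP2 and BMP4, was at 0.427, 0.431 and 0.620 CPM in knockout clones against 19.4, 5.06 and 17.9 CPM in the het clones. Here het clone 2 was the low one, and the pooled fold was 27.7 lower (18.7 to 42.7; log2 fold change -4.81 ± 0.60 SE, edgeR adjusted p = 0.00269).

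Fst, or follistatin, the classical activin trap, was low in both genotypes but even within each. It was at 0.305, 0.246 and 0.259 CPM in knockout clones against 3.53, 2.98 and 3.64 CPM in the het clones. Pooled counts were 12.5-fold lower in knockout clones (exact 95% interval 7.25 to 23.4; log2 fold change -3.61 ± 0.33 SE, edgeR adjusted p = 0.000872). All of these met the count filter through the het clones alone. The calls of Fst, Fstl3 and Grem1 held in all 17 alternatives, among them the fit with no filter (edgeR adjusted p = 0.000596, 0.00437 and 0.00147).

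Nog, or noggin, another BMP trap, moved the opposite way. It was at 2.57, 2.58 and 1.29 CPM in knockout clones against 0.419, 0.169 and 0.314 CPM in the het clones. Every knockout clone was above every het clone, with 109 counts in knockout clones and 15 in het clones. That is 7.05-fold higher (exact 95% interval 4.09 to 13.0; log2 fold change 2.81 ± 0.49 SE, edgeR adjusted p = 0.00757), and the call held in the 15 alternatives that gave a value. Nog met the filter through the knockout clones alone, and the fit with no filter gave 2.83 (edgeR adjusted p = 0.00684). Bmp1, a metalloprotease that cleaves the antagonist chordin and trims procollagens, was at 158, 191 and 192 CPM in knockout clones against 132, 93.0 and 97.5 CPM in the het clones. Het clone 1 was the het clone nearest to the knockout clones. The log2 fold change was 0.75 ± 0.16 (SE; edgeR adjusted p = 0.0152), lost without knockout clone 2 (0.0672), het clone 2 (0.0555) or het clone 3 (0.0539), in a range of 0.000307 to 0.348.

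Of the 4 antagonist genes that did not pass, Fstl1 was the most abundant. FSTL1 is a secreted glycoprotein of mesenchymal cells related to follistatin. It was at 297, 371 and 699.7 CPM in knockout clones against 712, 1009 and 965 CPM in the het clones. Knockout clone 3 nearly reached het clone 1 (log2 fold change -0.97, edgeR adjusted p = 0.0709), and without knockout clone 3 the difference was -1.43 and passed (edgeR adjusted p = 0.00812; range 0.00591 to 0.364). Chrd, or chordin, was at 0.733, 1.48 and 2.12 CPM in knockout clones against 5.21, 2.47 and 3.32 CPM in the het clones (log2 fold change -1.33, edgeR adjusted p = 0.0775).

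Chrdl1, a chordin-like BMP antagonist, had 0 counts in all knockout clones and was at 2.21, 4.27 and 43.5 CPM in het clones. Het clone 3 held most of its 806 counts. Over the group it was at least 277-fold lower in knockout clones, and at least 56.7-fold without het clone 3. The spread among het clones kept it above the threshold (edgeR adjusted p = 0.0691), while it passed without het clone 1 (0.0482) or het clone 3 (0.0140), in a range of 2.57e-05 to 0.217. Twsg1, which modulates BMP binding by chordin, averaged 100.7 ± 12.3 CPM in knockout clones and 117 ± 26.0 CPM in het clones (SD, n = 3 each; log2 fold change -0.22, edgeR adjusted p = 0.385).

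Of the 6 receptor-regulated and common SMAD genes only Smad3, a transducer of TGF-beta and activin, passed. It was at 55.7, 60.4 and 68.0 CPM in knockout clones against 85.8, 101 and 83.2 CPM in the het clones. The gap between the genotypes was about as wide as the spread within them, with a log2 fold change of -0.55 ± 0.12 (SE; edgeR adjusted p = 0.0168). The call was lost without knockout clone 1 (0.0632), knockout clone 2 (0.0750) or het clone 2 (0.0509), in a range of 0.000455 to 1. The BMP transducers did not pass: Smad1 gave 0.06 (edgeR adjusted p = 0.831), Smad5 -0.21 (0.191) and Smad9 -0.42 (0.136) on the log2 scale.

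Smad2 and Smad4 did not pass and ranked the 6 clones in the same order. Smad2, the other TGF-beta transducer, was at 85.1, 72.4 and 51.5 CPM in knockout clones against 90.2, 59.4 and 65.1 CPM in the het clones (log2 fold change -0.04, edgeR adjusted p = 0.912). Smad4, the common partner, was at 85.5, 73.9 and 56.7 CPM in knockout clones against 88.6, 58.4 and 69.4 CPM in the het clones (0.00, edgeR adjusted p = 0.994). The inhibitory Smad7 was at 47.9, 32.0 and 22.4 CPM in knockout clones against 35.5, 27.0 and 32.8 CPM in the het clones (0.10, edgeR adjusted p = 0.805). In all 3 genes knockout clone 3 was the lowest knockout clone and het clone 1 the highest het clone.

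These 3 genes lie on chromosome 18, whose median gene was shifted in the same clones. The median log2 ratio of knockout clone 3 to knockout clone 1 was -0.38 over 240 chromosome 18 genes, against -0.12 to 0.10 for the other 18 autosomes. For het clone 1 over the mean of the other het clones it was 0.33, against -0.17 to 0.26. The genes' own log2 ratios between knockout clones 3 and 1 were -0.72 for Smad2, -0.59 for Smad4 and -1.09 for Smad7. For het clone 1 over the other het clones they were 0.53, 0.47 and 0.25. Bambi, the other member on chromosome 18, did not share this order, being highest among knockout clones in clone 3 and highest among het clones in het clone 3. The part of the chromosome in these values was not tested. Smad6, the inhibitory SMAD of the BMP branch on chromosome 9, was at 10.3, 7.87 and 11.4 CPM in knockout clones against 13.0, 12.8 and 18.4 CPM in the het clones (log2 fold change -0.58, edgeR adjusted p = 0.0947).

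**Figure D3:**
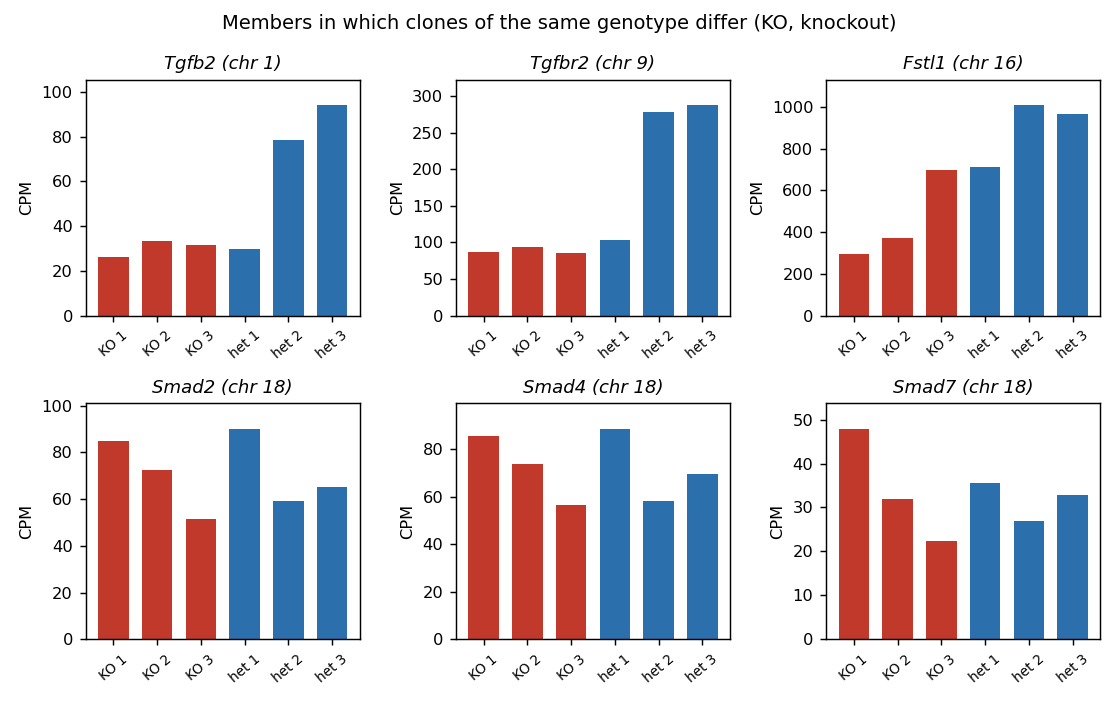
CPM in each clone (KO, knockout; 1 bar per clone, axes from 0) for 6 members in which clones of 1 genotype differ; the 6 were picked with their values in view. In Tgfb2 het clone 1 (30.0 CPM) lies among the knockout clones, and in Tgfbr2 (102.6 CPM) it lies near but above them all. In Fstl1 knockout clone 3 (699.7 CPM) nears het clone 1, and the 3 chromosome 18 genes share a low knockout clone 3 and a high het clone 1.

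The SMAD corepressor genes Ski and Skil went in opposite directions. Ski was at 97.8, 98.2 and 96.7 CPM in knockout clones against 140.2, 186 and 243 CPM in the het clones. The knockout clones were nearly identical while the het clones ranged widely above them (log2 fold change -0.96 ± 0.19 SE, edgeR adjusted p = 0.0122). Skil, the SnoN gene and itself induced by TGF-beta, was at 108, 99.5 and 118.5 CPM in knockout clones against 82.3, 69.7 and 62.6 CPM in the het clones (0.60 ± 0.13 SE, edgeR adjusted p = 0.0155). The call of Ski was lost without knockout clone 1 (0.0506) or knockout clone 2 (0.0562), in a range of 3.06e-05 to 0.118. That of Skil was lost without knockout clone 1 (0.0542) or het clone 2 (0.0593), in a range of 0.000618 to 0.807.

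SMURF1 and SMURF2 are ubiquitin ligases that mark SMADs and receptors for degradation. Smurf2 was at 63.7, 64.3 and 56.5 CPM in knockout clones against 79.4, 117 and 124 CPM in the het clones, with het clone 1 nearest to the knockout clones (log2 fold change -0.80 ± 0.18 SE, edgeR adjusted p = 0.0172). Its call was lost without knockout clone 1 (0.0566), knockout clone 2 (0.0637), het clone 2 (0.0615) or het clone 3 (0.0543), in a range of 0.000351 to 0.279. Smurf1 was at 86.7 to 101.9 CPM in knockout clones and 112 to 138 CPM in het clones, without overlap (-0.34, edgeR adjusted p = 0.0746).

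The ID genes encode dominant-negative helix-loop-helix factors and are immediate targets of BMP-activated SMADs. Id1 was at 38.4, 15.9 and 12.7 CPM in knockout clones against 62.4, 58.3 and 68.0 CPM in the het clones. Het clones were close together, while knockout clone 1 was well above the other knockout clones. The log2 fold change was -1.5 ± 0.41 (SE; edgeR adjusted p = 0.0381), and the call held in 8 of 17 alternatives. Without knockout clone 1 the difference was -2.14 (edgeR adjusted p = 0.00229). The call was lost without knockout clone 2 (0.126), knockout clone 3 (0.0706), het clone 1 (0.0541), het clone 2 (0.0797) or het clone 3 (0.0902), in a range of 0.000728 to 0.149.

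Id3 and Id2 did not pass. Id3 was at 170.7 to 203 CPM in knockout clones and 164 to 224 CPM in het clones, with full overlap (log2 fold change 0.03, edgeR adjusted p = 0.903). Id2 was at 74.4, 50.8 and 63.6 CPM in knockout clones against 150.5, 49.4 and 51.2 CPM in the het clones, so that het clone 1 alone stood above the rest (-0.41, edgeR adjusted p = 0.548). Id4 had 33 counts in knockout clones and 16 in het clones and was untested. A difference in response between Id1 and the other ID genes was not tested.

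Levels of different genes can be compared only per length, for which the authors' FPKM (fragments scaled to transcript length and library size) served for the 35 members listed there. Fstl1 had the highest mean over all clones, with 129.7 ± 59.9 FPKM in knockout clones and 254 ± 46.5 FPKM in het clones (SD, n = 3 each). Id3 came next, with 162 ± 15.7 and 157 ± 29.3 FPKM in knockout and het clones. In knockout clones it was above Fstl1, though within the spread. It was followed by Id2, with 51.3 ± 9.99 and 66.3 ± 44.9 FPKM. In het clones Id1 (66.0 ± 5.77 FPKM), Bmp4 (63.5 ± 21.3 FPKM) and Id2 were at about the same level and did not differ beyond their spread. In knockout clones Id1 was at 23.9 ± 14.9 FPKM and Bmp4 at 0.415 ± 0.0146 FPKM, so Bmp4 was the ligand gene with the most RNA per length in het clones and among the least abundant listed members in knockout clones. Tgfbr2 was at 19.4 ± 0.840 FPKM in knockout clones and 47.7 ± 22.7 FPKM in het clones.

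The wider pathway was described with 113 other genes in 7 lists, with Ltbp2 and Pmepa1 each in more than 1 list. Of these 113 genes, each counted once, 72 were tested, 7 were higher and 20 lower in knockout clones. Their median log2 fold change was -0.31, and 37.5% of those tested were called, where 28.1% of all tested genes were. The lists were chosen with earlier results of these data known, so their shares beside those of all genes are not a neutral comparison. The list of genes for latency and activation of TGF-beta had the most calls: 10 of 14 tested genes were lower and 1 was higher, with a median of -2.74, where 14.2% of all tested genes were lower and 13.9% higher. Among the 10 lower genes, Ltbp2, Itgb8 and Fbn2 met the count filter through the het clones alone. Fbn1, whose fibrillin microfibrils hold latent TGF-beta in the matrix, averaged 17.1 ± 1.22 CPM in knockout clones and 479 ± 96.8 CPM in het clones (SD, n = 3 each; log2 fold change -4.81, edgeR adjusted p = 3.38e-05). Thbs1, which can release TGF-beta from its latent complex, averaged 690 ± 299 CPM in knockout clones and 4856 ± 1457 CPM in het clones (-2.82, edgeR adjusted p = 0.00453). Ltbp4, a latent TGF-beta binding protein gene, averaged 3.67 ± 1.5 and 23.3 ± 10.9 CPM in knockout and het clones (-2.66, edgeR adjusted p = 0.00633). The exception was Furin, the convertase that cleaves TGF-beta precursors, at 121 ± 9.19 CPM in knockout clones and 78.7 ± 5.4 CPM in het clones (0.62, edgeR adjusted p = 0.00610). Ltbp1, the most abundant gene of the list that did not pass, gave -0.60 (edgeR adjusted p = 0.0736), and passed without het clone 1 (0.03; range 0.0161 to 0.858).

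Among 20 tested TGF-beta target genes, 7 were lower and 2 higher in knockout clones, with a median of -0.45. Of all tested genes, 14.2% were lower and 13.9% higher. The lower ones included the collagen genes Col1a1, Col1a2 and Col3a1, which are also on the fibroblast marker list, and the contractile genes Tagln and Acta2, which are not. Col1a2 averaged 0.816 ± 0.436 CPM in knockout clones and 1056 ± 786 CPM in het clones (log2 fold change -10.36, edgeR adjusted p = 0.00124), and -9.59 without het clone 1. Col1a2 met the count filter through the het clones alone. Col1a1 averaged 7.40 ± 5.75 and 1229 ± 245 CPM in knockout and het clones (-7.36, edgeR adjusted p = 0.00128), and -8.19 without knockout clone 3. Tagln, an actin-binding protein of contractile cells, averaged 2.20 ± 0.894 and 49.0 ± 20.6 CPM (-4.48, edgeR adjusted p = 0.00131), and Acta2, smooth muscle actin, 1.02 ± 0.598 and 27.6 ± 16.1 CPM (-4.76, edgeR adjusted p = 0.00524). Fn1, the fibronectin gene, was abundant in both genotypes, at 4269 ± 294 and 5774 ± 589 CPM, and did not pass (-0.44, edgeR adjusted p = 0.121).

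Of 10 tested BMP target genes, 2 were lower and 1 was higher in knockout clones, with a median of -0.64. That is 30.0% called, near the 28.1% of all tested genes. Runx2, the osteoblast factor, averaged 35.1 ± 0.983 CPM in knockout clones and 58.1 ± 5.87 CPM in het clones (log2 fold change -0.73, edgeR adjusted p = 0.00444). Atoh8, a helix-loop-helix factor gene, averaged 5.45 ± 2.22 and 18.5 ± 2.46 CPM in knockout and het clones (-1.76, edgeR adjusted p = 0.00681). The homeobox gene Dlx2 was higher, at 15.5 ± 5.57 against 6.67 ± 1.74 CPM (1.21, edgeR adjusted p = 0.0277). That call was lost without knockout clone 1 (0.0823), knockout clone 2 (0.0656), het clone 2 (0.0948) or het clone 3 (0.0885), in a range of 0.00291 to 0.142. Hes1 did not pass (-0.01, edgeR adjusted p = 0.987).

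The other 4 lists held few calls. Of all tested genes 28.1% were called, against 12.5% of the further antagonists tested. Among 8 tested further antagonists only Htra1, a secreted protease known to inhibit TGF-beta family signalling, passed, at 2.66 ± 1.22 CPM in knockout clones and 70.2 ± 10.6 CPM in het clones (log2 fold change -4.73, edgeR adjusted p = 0.000576). Crim1, a BMP-binding membrane protein gene, gave 0.54 (edgeR adjusted p = 0.0525) and passed without knockout clone 3 (0.0101; range 0.0101 to 1). Of 19 tested intracellular regulators, 2 were higher and 1 was lower, 15.8% in all. Tab2, an adaptor of the TAK1 kinase, averaged 95.1 ± 2.93 and 169 ± 10.8 CPM in knockout and het clones (-0.83, edgeR adjusted p = 0.00154). The 40 tested genes nearest to Tab2 had a median of -0.59, and with that local median taken out Tab2 was at -0.24 and did not pass (edgeR adjusted p = 0.0898; range 1.99e-15 to 0.0898). Ppm1a, a SMAD phosphatase, gave 0.56 (edgeR adjusted p = 0.0111), and 0.25 with its local median of 0.32 taken out (0.144; range 0.000236 to 1). Trim33, a SMAD4-regulating ubiquitin ligase, gave 0.40 (edgeR adjusted p = 0.0222), lost without knockout clone 1 (0.0822), knockout clone 2 (0.0645) or het clone 3 (0.0741), or with the local median taken out (0.20, 0.171), in a range of 0.00255 to 1. The abundant receptor-binding Fkbp1a gave -0.16 (edgeR adjusted p = 0.572).

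Of 2 tested co-receptors, Rgmb, a BMP co-receptor gene, was higher at 12.7 ± 2.03 CPM in knockout clones against 7.94 ± 0.795 CPM in the het clones (log2 fold change 0.68, edgeR adjusted p = 0.0362). This call was lost on leaving out any of the 6 clones (adjusted p 0.0917, 0.0733 and 0.0764 without knockout clones 1, 2 and 3, and 0.0542, 0.0724 and 0.106 without het clones 1, 2 and 3; range over the alternatives 0.0126 to 0.602). Of 20 further ligands of the superfamily, only Inha, the inhibin alpha subunit gene, had enough counts to be tested (0.53, edgeR adjusted p = 0.467).

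**Figure D4:**
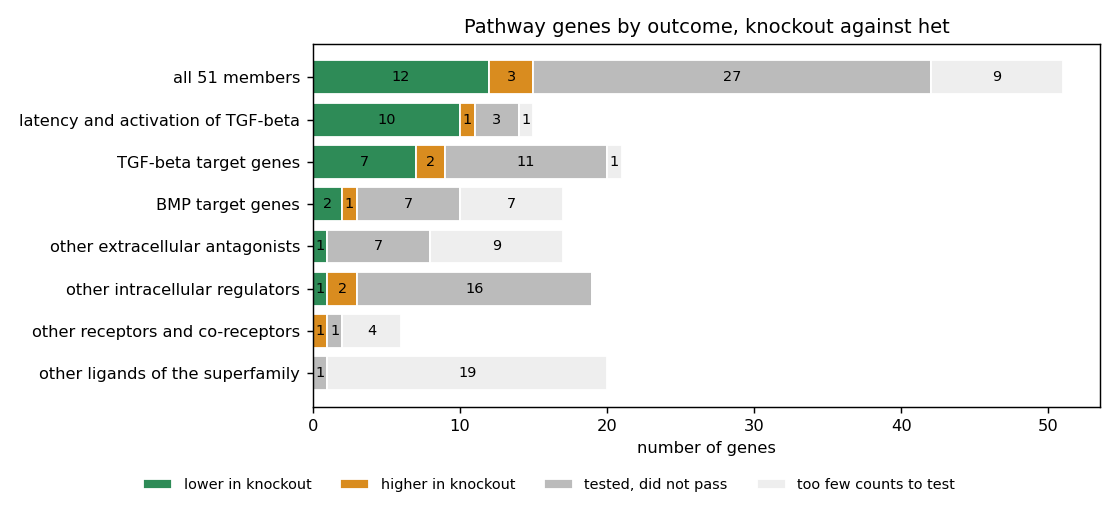
Number of genes lower in knockout clones, higher in knockout clones, tested without passing and untested, for the 51 members and 7 lists of other pathway genes (x axis, number of genes). The latency and activation list has 10 of its 15 genes in the lower class, against 12 of 51 for the members, and most further ligands had too few counts to be tested.

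The authors' deposited table compares transcripts, and held 70 transcripts of 35 members. Of these, 19 transcripts in 13 genes were below an adjusted p of 0.05 in the authors' deposited table, 18 lower and 1 higher, where 14.0% of its 24799 transcripts were. The header does not name the direction of its fold change; it was read as knockout over het, by the sign shared with the gene-level values. All 3 Bmp4 transcripts were lower in the authors' deposited table, with log2 fold changes of -7.62, -6.87 and -7.18. For Ski the authors' deposited table gave -1.30 for the transcript of 4521 bases (adjusted p = 2.71e-05), -0.91 for that of 5309 bases (0.0518) and -0.21 for that of 5522 bases (0.690). Of the 15 genes called here, 11 had a called transcript in the authors' deposited table, and 2, Gdf5 and Nog, were not listed in it. Of those 11 genes, 0 went in the opposite direction. Since the direction was set by these same values and both tests used the same libraries, this is no independent support. Tgfb2 and Fstl1 had a called transcript in the authors' deposited table but did not pass at the gene level.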

How the data were processed

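The members and gene lists were chosen with earlier results of these data known. Per the labels' protocols, TriPure RNA went into stranded mRNA libraries. The submitters' processing notes name Trimmomatic 0.36, kallisto 0.42.5, edgeR and build GRCm38.p4. For 96626 transcripts the authors deposited estimated counts, 48.2% of them not whole. The authors also deposited FPKM for 24799 transcripts, and a table of their own test. Per the file headers, that table gives p-values, both raw and adjusted, a log2 fold change and the log2 of average CPM.

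Gene assignment used GENCODE M21 (GRCm38; 95213 matched, 260 through the authors' table, 1153 left out, holding 0.017% to 0.028% of counts). Counts were summed per gene and rounded. Reads shared by similar genes are split by estimation. Genes passing filterByExpr (minimum count 10, total 15) were scaled by TMM and tested with edgeR 4.0.16's robust quasi-likelihood F test in R 4.3.3, two-sided, and p-values were adjusted by Benjamini-Hochberg over 12745 genes. Standard errors came from the F statistic. Intervals of pooled counts and floors of 3 counts cover counting error only. Values in every clone are given for each member that passed and for the most abundant other member of each role, and further members were added after their values were seen. From each other list up to 4 passing genes with the smallest adjusted p, and the most abundant other gene, are named. Clones are numbered in accession order. The 17 alternatives used edgeR, DESeq2 1.42.0 and limma 3.58.1. One marker of another cell type is not reported here.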

Additional observations from a re-analysis of the deposited data

How the results depend on the processing

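No paired analysis was run because the labels state no pairing of clones between the genotypes, and clones were numbered in accession order. Of the 15 calls, 6 held in every alternative that gave a value (Bmp4, Tgfbr3, Fst, Fstl3, Grem1 and Nog), and 0 of 15 changed direction in any. Apart from left-out clones, calls were lost with transcripts as units (Gdf5, Tgfbr2, Smad3, Skil, Smurf2 and Id1), against a fold of 1.5 (Tgfbr2, Bmp1, Smad3, Ski, Skil, Smurf2 and Id1), with the local chromosome median taken out (Skil and Id1), with no filter (Tgfbr2 and Id1), and with limma-voom or FPKM (Tgfbr2). Members called lower numbered 12, and 7 with transcripts as units, 7 in a test against a fold of 1.5, and 5 (without knockout clone 2) to 16 (without het clone 1) with 1 clone left out, 7 without het clone 2. Members called higher numbered 3, 1 against a fold of 1.5, and 1 (without het clone 2) to 4 (without het clone 1) with 1 clone left out. Over all genes, 3585 calls became 1822 with transcripts as units, 1100 against a fold of 1.5, and 1566 (without knockout clone 2) to 3825 (without het clone 1), with 1892 without knockout clone 1 and 2227 without het clone 2. The cause was not tested, except that a fold threshold asks for more by construction.

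Among the genes named, those that changed direction had no call. With the local chromosome median taken out, log2 fold changes were 0.02 for Inhba and Bmpr2, -0.05 for Acvr2a, 0.15 for Smad2, 0.16 for Smad4 and 0.07 for Fkbp1a. With transcripts as units they were 0.05 for Bmpr2, 0.71 for Eng, and 0.02 for Smad4 and Hes1. On log2(FPKM + 1) they were 0.01 for Bmpr2 and 0.04 for Smad4, and on log2(FPKM + 0.1) 0.02 for Bmpr2, 0.04 for Smad4 and 0.00 for Hes1. With no filter they were 0.02 for Smad4 and Hes1, and with limma-voom 0.02 for Hes1. With 1 clone left out, values ran from -0.58 to 0.11 for Bmp7, -0.37 to 0.23 for Inhba, -0.00 to 0.15 for Tgfbr1, -0.03 to 0.11 for Acvr2a, -0.85 to 0.33 for Eng, -0.11 to 0.28 for Smad1, -0.21 to 0.16 for Smad2, -0.15 to 0.17 for Smad4, -0.23 to 0.33 for Smad7, -0.69 to 0.32 for Id2, -0.07 to 0.17 for Id3 and -0.21 to 0.19 for Hes1. The 9 untested members did not reach 0.582 CPM in 3 clones. Bmp2 and Gdf10 had no counts, and Bmpr1b, Acvrl1, Acvr2b and Id4 had too few for a difference to be tested. Gdf6 had 87 counts in het clones, but 0 in het clone 1.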
